A study of Mus musculus with 10 samples.

Results

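The MHC class II genes and their master regulator Ciita were followed through 10 bulk RNA sequencing libraries of mouse T cells engineered with cytokine mRNA. The set was chosen by name and holds 10 of the 55359 gene identifiers counted: the regulator Ciita, the invariant chain Cd74, the surface class II chains H2-Aa, H2-Ab1 and H2-Eb1, the peptide-loading chains H2-DMa, H2-DMb1 and H2-DMb2, and the loading inhibitor chains H2-Oa and H2-Ob. All 10 were found in the raw counts, and all 10 passed the filter on low counts. The cells were pmel-1 lymphocytes from spleen, CD8 T cells that carry a transgenic receptor for gp100, an antigen of melanoma. All 5 groups were activated with the human gp100 peptide for 48 h and kept in human IL-2 for a further 48 h. The first group was electroporated with mRNA for IL-12 together with mRNA for DRIL18, a decoy-resistant form of IL-18 (the mixture), the second with IL-12 mRNA alone (IL12), the third with DRIL18 mRNA alone (DRIL18). The fourth was electroporated as a control (Mock), with an unstated mRNA, and the fifth was not electroporated (NoEp) and is labelled WT. RNA was taken from the electroporated cells after 24 h of culture. Each group has 2 libraries. They are labelled biological replicates, but separate animals are not mentioned, so p-values cover the spread between libraries alone, which may be technical.

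MHC class II molecules are pairs of an alpha and a beta chain that show peptides from the endosome to CD4 T cells. Cd74 escorts new pairs to the endosome, H2-DM removes the last piece of Cd74 and lets peptides bind, and H2-O holds H2-DM back. CIITA does not bind DNA itself but is recruited by factors sitting on conserved X and Y boxes of these promoters, and in cells that do not make class II constitutively it is induced by interferon gamma, with IRF1 among the factors that act on its promoter. In the spleen class II is made mainly by B cells, dendritic cells and macrophages, and H2-O mainly by B cells. A spleen culture can therefore hold class II RNA from cells other than T cells, and in bulk RNA fewer cells of a type and less RNA per cell cannot be told apart.

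The promoters are shown first because members with the same elements moved in opposite directions in the mixture. RefSeq promoter windows on GRCm38.p6, from 250 bases before to 50 after an annotated start, were at hand for 7 of the 10 genes. They held the Y box core, TGATTGG, in 6 genes, and 87 bases around each match are printed here, 5′ to 3′ on the gene's own strand. Capitals mark the Y box core and, before it, the X box (AAC, any 3 bases, then TGATG) or, in H2-Aa, the cyclic AMP response element TGACGTCA.

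H2-Aa, chr17:34287847-34287933, minus strand: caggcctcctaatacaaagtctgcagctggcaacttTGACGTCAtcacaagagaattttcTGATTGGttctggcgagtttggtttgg
H2-Eb1, chr17:34305746-34305832, plus strand: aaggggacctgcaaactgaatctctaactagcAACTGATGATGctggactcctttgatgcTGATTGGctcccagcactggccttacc
H2-DMb1, chr17:34153068-34153154, plus strand: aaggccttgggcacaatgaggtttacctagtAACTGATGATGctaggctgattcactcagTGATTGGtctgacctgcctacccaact
H2-DMb2, chr17:34145097-34145183, plus strand: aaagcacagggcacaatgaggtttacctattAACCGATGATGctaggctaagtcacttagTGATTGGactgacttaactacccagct
H2-Ob, chr17:34238786-34238872, plus strand: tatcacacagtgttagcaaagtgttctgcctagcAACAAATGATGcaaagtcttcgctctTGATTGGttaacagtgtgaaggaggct
H2-Oa, chr17:34092274-34092360, plus strand: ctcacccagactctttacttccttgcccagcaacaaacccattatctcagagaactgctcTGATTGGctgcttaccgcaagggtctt

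The Y box core lay 45 to 92 bases before the annotated start, and 15 to 18 bases separated it from the X box or response element before it. Searched on both strands, it was found in 7.82% of 32851 promoters, the X box letters in 0.615% and the response element in 1.79%. The Y box core and the X box letters stood together on the forward strand in 5 promoters, 0.0152% of those searched, and 4 of these belonged to H2-Eb1, H2-DMb1, H2-DMb2 and H2-Ob. The motif letters were written down after these promoters had been read, so these shares describe the windows and test nothing. The pair of windows for H2-DMa held none of the letters searched, and those of H2-Aa and H2-Oa no exact X box letters. Such absence says nothing about the factors that act there. H2-Eb1, which rose in the mixture, and H2-Ob, which fell, both carry the pair of boxes. Whether the boxes bear on either change was not tested.

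**Figure D1:**
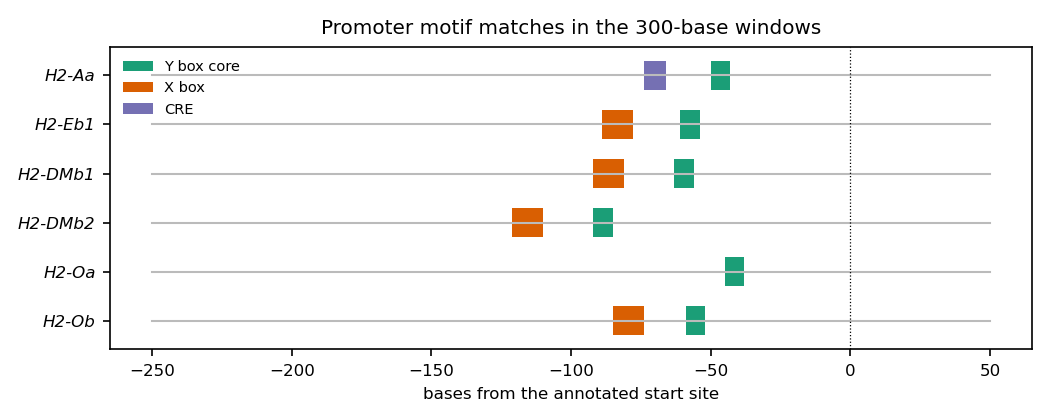
Positions of the Y box core (green), X box (orange) and cyclic AMP response element (violet) in the RefSeq promoter windows of 6 class II genes. The horizontal axis gives bases from the annotated start site, and each grey line is a window. The Y box core sits between 45 and 92 bases before the start in all 6, and in H2-Oa the exact X box letters searched were not found.

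The libraries held 31281944 to 35062545 counts over 20326 to 21358 detected genes. Levels are given as CPM, counts scaled to library size, after TMM scaling of library sizes, and differences as log2 fold changes from edgeR's quasi-likelihood F test across all 15777 tested genes, with Benjamini-Hochberg adjusted p under 0.05 as the threshold. All comparisons against Mock share the same 2 Mock libraries. The labelled cell type was borne out by its markers, since Cd8a had 739 to 955 CPM and Cd8b1 467 to 771 CPM over the 10 libraries. A mark, bis, whose meaning is not given, stands on the columns of both mixture and both NoEp libraries and of replicate 2 of IL12 and DRIL18, and on neither Mock column.

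Ciita was low in every group, and higher wherever DRIL18 mRNA had been given. Its CPM were 2.48 and 3.44 in the mixture, 1.08 and 1.04 in IL12, 4.33 and 3.74 in DRIL18, 1.02 and 1.22 in Mock, and 2.23 and 1.67 in NoEp. Both mixture and both DRIL18 libraries lay above all the others, and the IL12 libraries lay among those of Mock. These levels rest on 33 to 150 counts per library. The exons of Ciita share 329 bases, 3.45% of their length, with Dexi on the opposite strand. Dexi had 353 to 600 counts per library, more than Ciita, and the strand setting of the counting is not given. Against Mock, Dexi was at log2 -0.67 in the mixture (adjusted p = 1.36e-07), -0.13 in IL12 (adjusted p = 0.254) and -0.16 in DRIL18 (adjusted p = 0.186). The part of this overlap in the Ciita levels was not tested. Against Mock, Ciita rose 3.60-fold in DRIL18 (log2 1.85 ± 0.24 (SE), adjusted p = 6.73e-07) and 2.64-fold in the mixture (log2 1.40 ± 0.25, adjusted p = 1.32e-05). In IL12 its log2 fold change was -0.08, with a 95% interval from -0.68 to 0.52 (adjusted p = 0.852). The mixture was 0.733-fold of DRIL18 alone, which missed the threshold (log2 -0.45, 95% interval -0.88 to -0.01, adjusted p = 0.0744), but passed it without mixture replicate 2 (log2 -0.70, adjusted p = 0.0289).

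**Figure D2:**
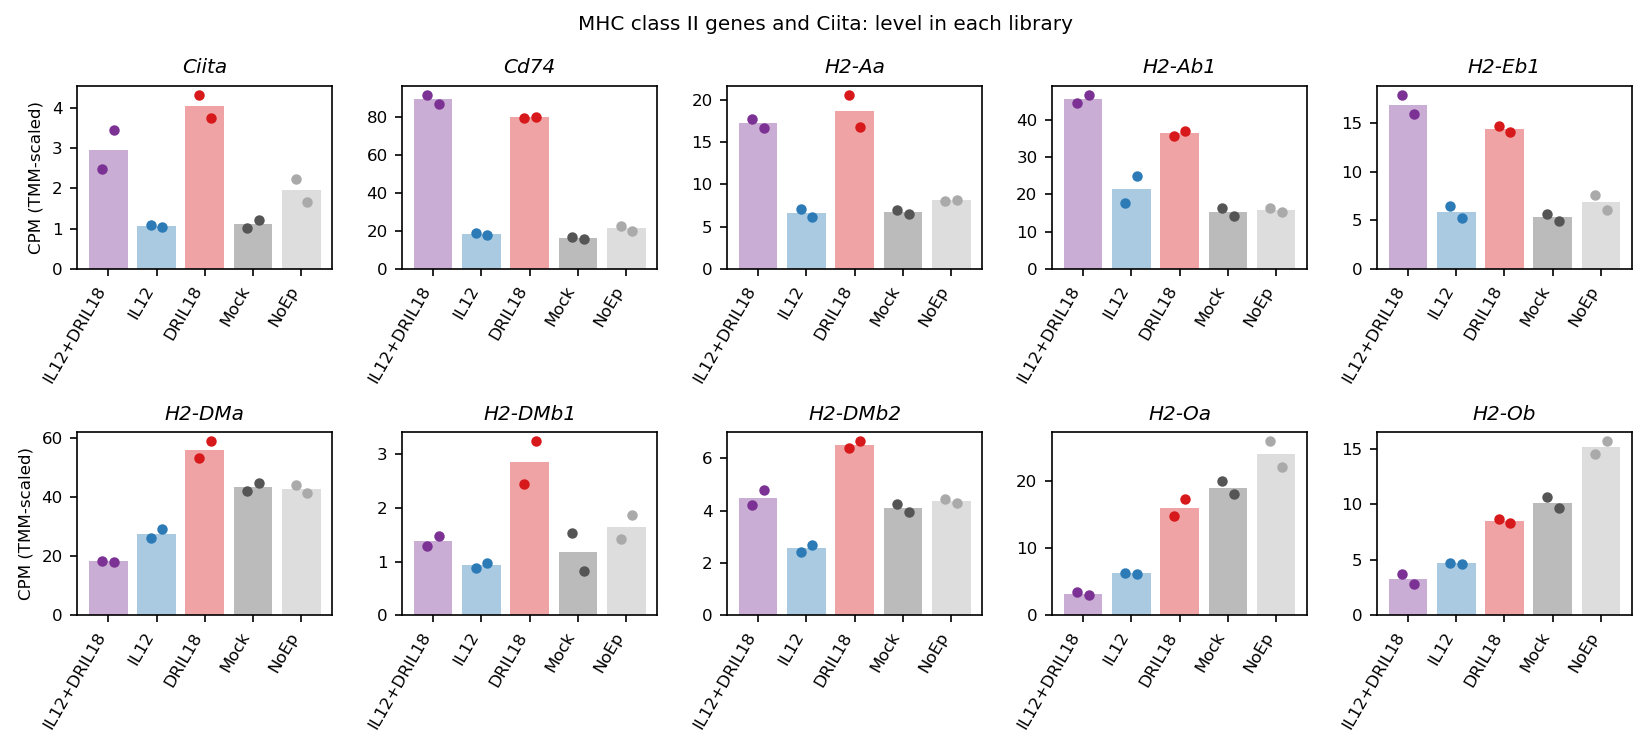
Level of each of the 10 genes in every library. Points are the 2 libraries of a group and bars their mean, in TMM-scaled CPM on axes that start at 0 and differ between panels. Ciita, Cd74, H2-Aa, H2-Ab1 and H2-Eb1 are high in the mixture and DRIL18, whereas H2-Oa and H2-Ob are lowest in the mixture.

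The surface chains and the invariant chain were higher in both groups given DRIL18. Cd74 had 92.0 and 87.0 CPM in the mixture, 19.0 and 17.8 in IL12, 79.9 and 80.3 in DRIL18, 16.6 and 15.9 in Mock, and 22.5 and 20.04 in NoEp. The mixture and DRIL18 libraries stood apart from the other 3 groups by more than any difference between replicates. Cd74 rose 5.50-fold in the mixture (log2 2.46 ± 0.06, adjusted p = 7.77e-25) and 4.92-fold in DRIL18 (log2 2.30 ± 0.06, adjusted p = 1.65e-22), the largest change of any gene of the set in either comparison except the fall of H2-Oa in the mixture. In IL12 the change was 0.18 on the log2 scale and stood just outside the threshold (adjusted p = 0.0518); 6 of 19 alternative analyses put it inside.

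H2-Ab1, the beta chain of the H2-A molecule, had 44.4 and 46.7 CPM in the mixture, 17.7 and 25.0 in IL12, 35.6 and 37.1 in DRIL18, 16.4 and 14.2 in Mock, and 16.4 and 15.3 in NoEp. It was the only member called higher in IL12 than in Mock (log2 0.48 ± 0.10, adjusted p = 0.000279), and this rested on 1 library: without IL12 replicate 2 the log2 fold change was 0.21 (adjusted p = 0.0982). It rose 2.97-fold in the mixture (log2 1.57 ± 0.09, adjusted p = 2.23e-15) and 2.37-fold in DRIL18 (log2 1.24 ± 0.10, adjusted p = 1.97e-11). H2-Aa, the alpha chain of the same molecule, had 17.8 and 16.6 CPM in the mixture, 7.02 and 6.07 in IL12, 20.6 and 16.7 in DRIL18, 6.99 and 6.49 in Mock, and 7.97 and 8.18 in NoEp. The mixture overlapped DRIL18 for H2-Aa, and both lay above the other groups. H2-Aa rose 2.55-fold in the mixture (log2 1.35 ± 0.11, adjusted p = 3.39e-12) and 2.77-fold in DRIL18 (log2 1.47 ± 0.11, adjusted p = 8.19e-12).

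H2-Eb1, the beta chain of the H2-E molecule, had 18.0 and 15.9 CPM in the mixture, 6.50 and 5.25 in IL12, 14.7 and 14.1 in DRIL18, 5.69 and 4.97 in Mock, and 7.63 and 6.04 in NoEp. It rose 3.17-fold in the mixture (log2 1.67 ± 0.12, adjusted p = 2.49e-13) and 2.702-fold in DRIL18 (log2 1.43 ± 0.12, adjusted p = 1.97e-10). In IL12 its libraries overlapped those of Mock (log2 0.14, 95% interval -0.15 to 0.43, adjusted p = 0.454). H2-Ea, the alpha chain locus, which GENCODE names H2-Ea-ps and lists as a pseudogene, had 0 counts in all 10 libraries. With no RNA of its partner chain seen, the rise of H2-Eb1 RNA does not show more of the H2-E molecule. H2-Eb1 is called a surface chain here by its gene family alone, since only RNA was read. Neither of the other class II locus genes tested, H2-Eb2 and Btnl2, was called in any comparison.

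The H2-DM genes were called higher in DRIL18, at 1.29-fold for H2-DMa, 1.59-fold for H2-DMb2 and 2.40-fold for H2-DMb1. The surface chains rose 2.37-fold to 2.77-fold there. In the mixture no H2-DM gene was called higher. H2-DMa, the alpha chain of the peptide exchanger, had 18.5 and 18.1 CPM in the mixture, 26.1 and 29.2 in IL12, 53.3 and 59.0 in DRIL18, 42.0 and 44.8 in Mock, and 44.2 and 41.3 in NoEp. No library of the mixture, IL12 or DRIL18 overlapped with Mock: DRIL18 lay above it, IL12 below it, and the mixture lowest. H2-DMa fell to 0.422-fold of Mock in the mixture (log2 -1.24 ± 0.07, adjusted p = 5.11e-16) and to 0.638-fold in IL12 (log2 -0.65 ± 0.07, adjusted p = 2.08e-09), and rose 1.29-fold in DRIL18 (log2 0.37 ± 0.06, adjusted p = 3.37e-05). Its exons share 360 bases, 10.4% of their length, with Brd2 on the opposite strand, whose 12005 to 13943 counts per library in the mixture, IL12, DRIL18 and Mock exceed those of H2-DMa. The kit marks strand, but the strand setting of the counting is not given. Against Mock, Brd2 was at log2 0.20 in the mixture (adjusted p = 2.15e-05), 0.21 in IL12 (adjusted p = 2.55e-05) and 0.04 in DRIL18 (adjusted p = 0.535). The part of this overlap in the H2-DMa values was not tested.

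H2-DMb2, a beta chain of the exchanger, had 4.20 and 4.80 CPM in the mixture, 2.42 and 2.71 in IL12, 6.41 and 6.66 in DRIL18, 4.25 and 3.96 in Mock, and 4.46 and 4.31 in NoEp. It was lower than Mock in IL12 (log2 -0.68 ± 0.17, adjusted p = 0.0016), higher in DRIL18 (log2 0.67 ± 0.15, adjusted p = 0.00107), and in the mixture overlapped Mock (log2 0.13, 95% interval -0.19 to 0.45, adjusted p = 0.472). H2-DMb1, the other beta chain, had 1.28 and 1.48 CPM in the mixture, 0.882 and 0.975 in IL12, 2.45 and 3.24 in DRIL18, 1.53 and 0.833 in Mock, and 1.41 and 1.86 in NoEp. It rose 2.40-fold in DRIL18 (log2 1.26 ± 0.28, adjusted p = 0.000857), a call that was lost without Mock replicate 2 (log2 0.90, adjusted p = 0.0521). Values for this pair are uncertain, because their transcripts were 94.4% identical over 1255 aligned bases and 13.7% of the 100-base stretches of H2-DMb1 also occur in H2-DMb2. How reads that fit both were counted is not stated.

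The H2-O genes fell in both groups given IL-12. H2-Oa, the alpha chain of the inhibitor, had 3.42 and 3.05 CPM in the mixture, 6.31 and 6.13 in IL12, 14.8 and 17.3 in DRIL18, 19.9 and 18.1 in Mock, and 25.9 and 22.04 in NoEp. The 5 groups did not overlap and ran upward in that order. H2-Oa fell to 0.170-fold of Mock in the mixture (log2 -2.55 ± 0.12, adjusted p = 6.11e-18) and to 0.327-fold in IL12 (log2 -1.61 ± 0.11, adjusted p = 1.65e-13), with -0.25 in DRIL18 (95% interval -0.44 to -0.05, adjusted p = 0.0594). H2-Ob, its beta chain, had 3.71 and 2.79 CPM in the mixture, 4.74 and 4.66 in IL12, 8.66 and 8.28 in DRIL18, 10.7 and 9.64 in Mock, and 14.6 and 15.7 in NoEp. The order of the groups was the same as for H2-Oa. H2-Ob fell to 0.320-fold in the mixture (log2 -1.65 ± 0.14, adjusted p = 3.36e-12) and to 0.462-fold in IL12 (log2 -1.11 ± 0.13, adjusted p = 1.55e-08), with -0.26 in DRIL18 (adjusted p = 0.104). The exons of H2-Oa share 22.8% of their length with the antisense gene BC051537, which had 0 and 0 counts in the mixture, 5 and 5 in IL12, 14 and 13 in DRIL18, and 14 and 15 in Mock, against 103 to 704 counts of H2-Oa in the same libraries. Of 19 B cell markers, described further on, 7 were higher and 5 lower in the mixture and 0 higher and 8 lower in IL12. Over all tested genes, 63.9% were called in the mixture and 46.6% in IL12. The part of B cells in the fall of the H2-O genes was not tested.

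**Figure D3:**
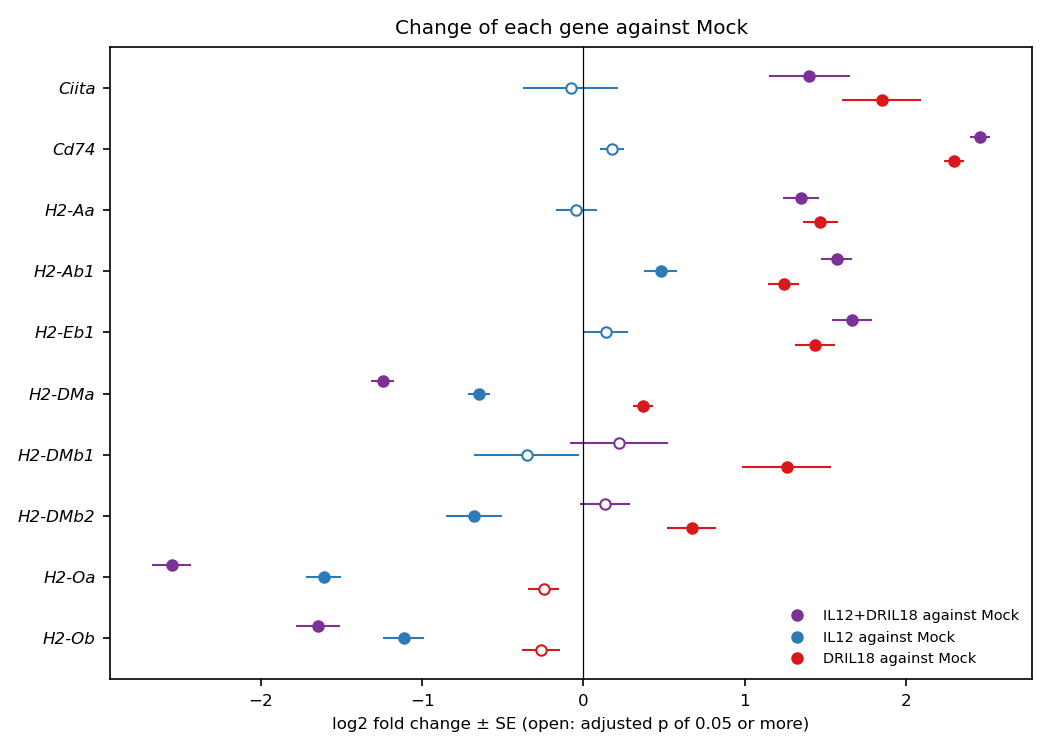
Log2 fold change against Mock of each gene in the mixture (violet), IL12 (blue) and DRIL18 (red), with bars of 1 standard error. Filled points have an adjusted p under 0.05. The mixture and DRIL18 lie together for Ciita, Cd74 and the surface chains, and the mixture lies beyond IL12 on the lower side for H2-DMa, H2-Oa and H2-Ob.

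Counted together, 5 members were higher and 3 lower in the mixture than in Mock, where 63.9% of all tested genes were called (32% higher and 31.9% lower). Their median log2 fold change was 0.79, against -0.0021 over all tested genes. In IL12, 1 was higher and 4 were lower, with 46.6% of all genes called (23% higher, 23.6% lower) and a median of -0.21 against -0.0065. In DRIL18, 8 were higher and 0 lower, with 24.3% of all genes called (12.2% higher, 12.1% lower) and a median of 1.25 against 0.0043. The 2 that were not called in DRIL18, H2-Oa and H2-Ob, had an unadjusted p of 0.0152 and 0.0312. The mixture and DRIL18 thus each had 8 of 10 members called, against 63.9% of all genes in the mixture and 24.3% in DRIL18.

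The mixture was set against each single mRNA. Against IL12, 6 members were higher and 3 lower, with 52.2% of all genes called (25.8% higher, 26.3% lower). Cd74 was 4.86-fold higher in the mixture (log2 2.28 ± 0.06, adjusted p = 1.16e-23), while H2-Oa was at 0.521-fold (log2 -0.94 ± 0.14, adjusted p = 1.79e-06). The smallest call among those lower was H2-Ob (log2 -0.53, adjusted p = 0.00396), which was lost without mixture replicate 2 (log2 -0.34, adjusted p = 0.111).

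Against DRIL18, 2 members were higher and 5 lower in the mixture, with 57.3% of all genes called (28.3% higher, 29% lower). The members that were higher, H2-Ab1 (log2 0.33 ± 0.09, adjusted p = 0.00164) and Cd74 (log2 0.16 ± 0.05, adjusted p = 0.0108), differed by little. Both calls were lost under at least 1 alternative: Cd74 with no scaling beyond the library total (log2 0.10, adjusted p = 0.12), without mixture replicate 1 (log2 0.12, adjusted p = 0.135) and without DRIL18 replicate 1 (log2 0.16, adjusted p = 0.0607), and H2-Ab1 in DESeq2 (log2 0.34, adjusted p = 0.069). The 5 that were lower were all H2-DM or H2-O genes, from -0.54 for H2-DMb2 to -2.31 for H2-Oa on the log2 scale. In IL12 against DRIL18, 0 members were higher and 10 lower, from -0.76 for H2-Ab1 to -2.12 for Cd74, with 39.5% of all genes called (18.9% higher, 20.6% lower).

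The interaction asks whether the mixture departs from the sum of the single-mRNA log2 changes. For 2 members it did, with 31.6% of all genes called (14.6% higher, 17.1% lower): H2-DMa differed from the sum by -0.97 ± 0.10 (adjusted p = 2.17e-09) and H2-Oa by -0.70 ± 0.17 (adjusted p = 0.00228). For Ciita, Cd74 and the surface chains no departure was called, and the intervals leave different room: Cd74 -0.02 (95% interval -0.20 to 0.17), H2-Aa -0.08 (-0.40 to 0.25), H2-Ab1 -0.15 (-0.43 to 0.12), H2-Eb1 0.09 (-0.27 to 0.46) and Ciita -0.37 (-1.11 to 0.38). The H2-Ab1 value depended on the IL12 libraries, being -0.38 (adjusted p = 0.00954) without IL12 replicate 1 and 0.12 without IL12 replicate 2.

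Mock against NoEp sets electroporated control cells beside cells that were not electroporated. The unstated mRNA that Mock received and the mark bis, on both NoEp columns and neither Mock column, cannot be told apart from electroporation here, and whether NoEp cells were cultured as long is not stated. In this comparison 0 members were higher and 3 lower, with 6.98% of all genes called (3.34% higher, 3.64% lower): Cd74 (log2 -0.38 ± 0.07, adjusted p = 0.00111), H2-Oa (-0.33 ± 0.09, adjusted p = 0.0235) and H2-Ob (-0.57 ± 0.11, adjusted p = 0.00131). Ciita lay at -0.79, with both Mock libraries below both NoEp libraries, but missed the threshold (95% interval -1.34 to -0.25, adjusted p = 0.0669). With the mark bis as a covariate, or without Mock replicate 2, only Cd74 of the 3 kept its call. Leaving out NoEp replicate 1 (-0.21, adjusted p = 0.344) or Mock replicate 1 (-0.40, adjusted p = 0.0838) also ended the H2-Oa call, as did DESeq2 (-0.33, adjusted p = 0.0652) and limma on the deposited log2 values (-0.33, adjusted p = 0.0859).

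Compared per kilobase of annotated exon, the order of the set changed between groups. The length joined the exons of all annotated transcripts of a gene, 1407 bases for H2-Oa and 3448 for H2-DMa. Ranks between genes depend on that choice: by CPM alone, H2-DMa at 43.4 stood above H2-Oa at 19.0 in Mock. In the mixture Cd74 stood first at 53.3 CPM per kb, then H2-Ab1 at 17.7, H2-Eb1 at 8.71, H2-DMa at 5.32, H2-Aa at 4.53, H2-DMb2 at 2.58, H2-Oa at 2.299, H2-DMb1 at 0.823, H2-Ob at 0.604 and Ciita at 0.310. In Mock H2-Oa stood first at 13.5 CPM per kb, beside H2-DMa at 12.6, and before Cd74 at 9.70, H2-Ab1 at 5.97, H2-Eb1 at 2.74, H2-DMb2 at 2.35, H2-Ob at 1.89, H2-Aa at 1.77, H2-DMb1 at 0.702 and Ciita at 0.117. The ratio of H2-DMa to H2-Oa per kb was 2.21 and 2.42 in the mixture, 1.69 and 1.94 in IL12, 1.47 and 1.39 in DRIL18, 0.860 and 1.01 in Mock, and 0.696 and 0.764 in NoEp. Every library given a cytokine mRNA thus had more H2-DMa per H2-Oa than any Mock or NoEp library, although both genes fell in the mixture and in IL12. The ratio of H2-Ab1 to H2-Oa was 7.12 and 8.38 in the mixture, 1.54 and 2.23 in IL12, 1.32 and 1.18 in DRIL18, and 0.451 and 0.432 in Mock.

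Ifng, the gene for interferon gamma and the classical inducer of Ciita, did not rank the groups as Ciita did. It had 8882 and 9109 CPM in the mixture, 209.8 and 188.7 in IL12, 17.5 and 17.2 in DRIL18, 0.906 and 1.43 in Mock, and 1.38 and 1.36 in NoEp. IL12 thus had more Ifng than DRIL18 in every library, and DRIL18 had more Ciita than IL12 in every library. Ifngr2, a chain of the interferon gamma receptor, had 3.68 and 4.54 CPM in the mixture, 1.44 and 1.32 in IL12, 13.4 and 12.9 in DRIL18, and 14.0 and 14.1 in Mock. It fell in IL12 (log2 -3.35, adjusted p = 1.87e-18) and in the mixture (log2 -1.77, adjusted p = 1.83e-14), and was at -0.10 in DRIL18 (adjusted p = 0.527).

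**Figure D4:**
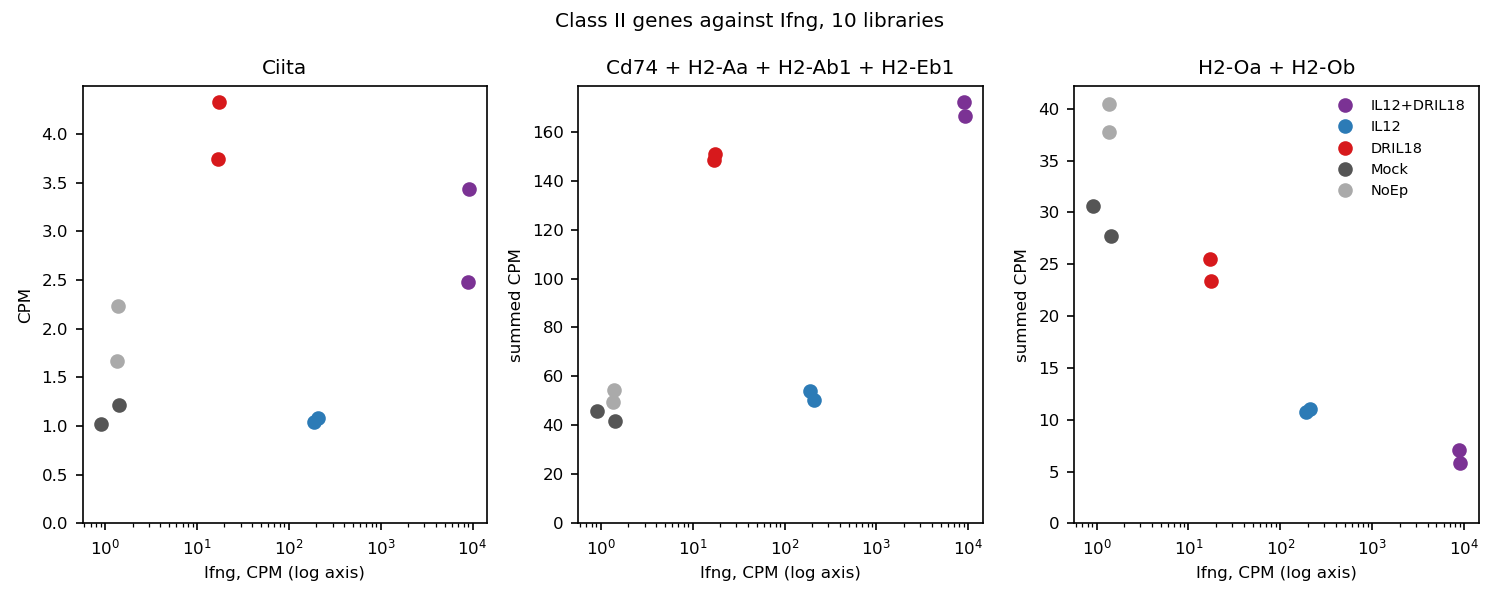
Levels of Ciita (left), the summed Cd74, H2-Aa, H2-Ab1 and H2-Eb1 (middle) and the summed H2-Oa and H2-Ob (right) against Ifng in the 10 libraries, in CPM, with Ifng on a log axis. Each point is a library, coloured by group. The class II sum was 148.2 to 172.1 CPM in the mixture and DRIL18 libraries and 41.6 to 54.5 CPM in the IL12, Mock and NoEp libraries, although IL12 had more Ifng than DRIL18.

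Among the 19 listed genes upstream of Ciita, 9 were higher and 7 lower in the mixture, 9 and 4 in IL12, and 9 and 4 in DRIL18, with median log2 fold changes of 0.06 in the mixture, 0.25 in IL12 and 0.21 in DRIL18. Beside this and each list below stand the shares of all tested genes called against Mock. They were 63.9% in the mixture (32% higher, 31.9% lower), 46.6% in IL12 (23%, 23.6%) and 24.3% in DRIL18 (12.2%, 12.1%). Irf1, which acts on an interferon-responsive promoter of Ciita, was lower in the mixture (log2 -0.20) and higher in DRIL18 (log2 0.62) than in Mock, with 0.05 in IL12 (adjusted p = 0.282). Socs3, a feedback inhibitor of cytokine receptors, rose in the mixture (log2 0.82) and IL12 (log2 1.10) and fell in DRIL18 (log2 -0.44). Prdm1, which encodes Blimp-1, a repressor of Ciita in plasma cells, rose in the mixture (log2 1.49), IL12 (log2 1.36) and DRIL18 (log2 0.28). Irf8, a transcription factor of B and myeloid cells, rose in the mixture (log2 1.97), IL12 (log2 2.32) and DRIL18 (log2 0.89). Spi1 rose in the mixture (log2 2.69, adjusted p = 0.00101), on 31 and 21 counts there against 7 and 1 in Mock. It was not called in IL12 (log2 0.46, adjusted p = 0.706) or DRIL18 (log2 0.69, adjusted p = 0.619).

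Of the 12 listed factors and co-activators that work with CIITA on class II promoters, 4 were higher and 6 lower in the mixture, 2 and 4 in IL12, and 1 and 3 in DRIL18, with medians of -0.26 in the mixture, -0.02 in IL12 and -0.01 in DRIL18. The shares of all tested genes called were 63.9% in the mixture, 46.6% in IL12 and 24.3% in DRIL18. Rfx5, a subunit of the X box factor, had 28.0 and 27.3 CPM in the mixture, 16.3 and 14.9 in IL12, 25.3 and 25.5 in DRIL18, and 18.5 and 21.1 in Mock. It was higher than Mock in the mixture (log2 0.48, adjusted p = 1.53e-06) and DRIL18 (log2 0.36, adjusted p = 0.000507) and lower in IL12 (log2 -0.34, adjusted p = 0.000854). The co-activators Crebbp and Kat2b were lower in all 3 (Crebbp log2 -0.69 in the mixture and Kat2b -0.88). Carm1, an arginine methyltransferase that acts with CIITA, was higher in the mixture (log2 0.79) and IL12 (log2 0.16). Creb1 was lower in the mixture (log2 -0.60, adjusted p = 1.64e-13) and IL12 (log2 -0.40, adjusted p = 3.44e-09). In DRIL18 Creb1 was at -0.0021 (adjusted p = 0.985). Of the 19 tested genes for endosomal handling, 5 were higher and 10 lower in the mixture, 3 and 8 in IL12, and 5 and 5 in DRIL18, with medians of -0.18 in the mixture, -0.10 in IL12 and 0.11 in DRIL18. Cd82, a tetraspanin of class II compartments, rose in the mixture (log2 1.40), whereas the cathepsin gene Ctsa (log2 -1.17) and the tetraspanin Cd9 (log2 -0.75) fell; the asparagine endopeptidase Lgmn was also higher (log2 1.14).

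MHC class I genes, which depend on the related regulator Nlrc5, went another way in the mixture. Of the 16 listed, 0 were higher and 13 lower in the mixture, 2 and 7 in IL12, and 11 and 0 in DRIL18, with medians of -0.30 in the mixture, -0.08 in IL12 and 0.22 in DRIL18. Among all tested genes, 31.9% were called lower in the mixture, 23.6% lower in IL12 and 12.2% higher in DRIL18. Nlrc5 itself was lower in the mixture (log2 -0.64), as were H2-T22 (log2 -0.55), H2-D1 (log2 -0.42) and H2-Q7 (log2 -0.40). Nlrc5 was not called in IL12 (log2 0.02, adjusted p = 0.613), or in DRIL18 (log2 0.06, adjusted p = 0.223), where 11 of the list were higher. Of 20 tested interferon gamma targets outside presentation, 13 were higher and 6 lower in the mixture, 12 and 3 in IL12, and 19 and 0 in DRIL18, with medians of 0.76 in the mixture, 0.67 in IL12 and 0.89 in DRIL18. The matching shares called higher among all tested genes were 32% in the mixture, 23% in IL12 and 12.2% in DRIL18. Cxcl10, a chemokine, had 35.9 and 32.9 CPM in the mixture, 4.64 and 2.58 in IL12, 6.32 and 6.45 in DRIL18, and 0.453 and 0.565 in Mock. The serine protease inhibitor gene Serpina3f had 9.58 and 7.92 CPM in the mixture, 1.73 and 1.89 in IL12, 29.2 and 30.2 in DRIL18, and 1.22 and 1.37 in Mock. Nos2 and Cxcl9, the other genes of this list with the largest changes in the mixture, had at most 33 counts in any library.

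A list named for costimulation on presenting cells holds, among others, Cd274, Pdcd1lg2 and the chemokine receptor gene Ccr7. Which cells made the RNA of its genes was not tested. Of the 11 tested, 9 were higher and 2 lower in the mixture, 5 and 0 in IL12, and 6 and 0 in DRIL18. Called higher among all tested genes were 32% in the mixture, 23% in IL12 and 12.2% in DRIL18. With Cd70 left out, since it had 26 and 15 counts in the mixture against 0 and 0 in Mock, the medians of the 10 others were 1.64 in the mixture, 0.42 in IL12 and 0.85 in DRIL18, and that of the mixture was 1.83 with Cd70 set at its bound. Tnfsf4, the OX40 ligand, rose in the mixture (log2 3.70), as did Cd83 (log2 3.12) and Pdcd1lg2, the PD-L2 gene (log2 3.06). Cd83, which is also known to keep class II at the surface, had 11.9 and 10.2 CPM in the mixture, 1.47 and 1.48 in IL12, 3.75 and 3.21 in DRIL18, and 1.25 and 1.28 in Mock.

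Markers of cells that make class II were read beside these results. The defining B cell markers Ms4a1, Cd79a and Pax5 were detected in every library, and summed to 13.1 and 14.2 CPM in the mixture, 8.66 and 7.17 in IL12, 11.4 and 11.5 in DRIL18, 8.77 and 9.34 in Mock, and 10.9 and 12.3 in NoEp. As a multiple of Mock this is 1.5 in the mixture, 0.874 in IL12, 1.27 in DRIL18 and 1.28 in NoEp, while the summed Cd74, H2-Aa, H2-Ab1 and H2-Eb1 were 3.87 times Mock in the mixture, 1.19 in IL12, 3.42 in DRIL18 and 1.19 in NoEp. The groups with the highest class II sum thus also had more of the defining B cell markers than Mock, by a smaller factor, and NoEp had a higher marker sum than Mock with a class II sum at 1.19. Of the whole list of 19 B cell markers, 7 were higher and 5 lower in the mixture, 0 and 8 in IL12, and 5 and 0 in DRIL18, with medians of 0.13 in the mixture, -0.33 in IL12 and 0.30 in DRIL18. All tested genes were called at 63.9% in the mixture, 46.6% in IL12 and 24.3% in DRIL18. Its summed level ran from 608.1 to 617.8 CPM in the mixture, 465.3 to 500.2 in IL12, 957.2 to 1006 in DRIL18, and 723.9 to 729.5 in Mock. Most of that sum was Ighm, the IgM heavy chain gene, named after its values were seen, at 514 to 531 CPM in the mixture, 421 to 453 in IL12, 875 to 921 in DRIL18 and 657 to 660 in Mock. The part of B cells in the class II changes was not tested.

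Most defining markers of dendritic cells and macrophages were at or near 0. Siglech had 0 counts in all libraries, Clec9a 1 count in 1 library, and Flt3 at most 5 counts. Zbtb46 had 87 and 57 counts in the mixture, 11 and 28 in IL12, 31 and 19 in DRIL18, 8 and 13 in Mock, and 10 and 8 in NoEp. Xcr1 made up most of the summed defining dendritic markers, which was 10.4 and 9.87 CPM in the mixture, 21.0 and 21.7 in IL12, 3.98 and 3.09 in DRIL18, and 4.95 and 4.76 in Mock. The other listed dendritic markers did not all follow that order. Batf3, a transcription factor of dendritic cells that activated T cells also make, named after its values were seen, had 56.4 and 54.1 CPM in the mixture, 14.2 and 14.7 in IL12, 34.7 and 34.1 in DRIL18, and 9.14 and 8.69 in Mock (log2 2.63 in the mixture, 0.69 in IL12 and 1.95 in DRIL18). Of the 14 tested of 20 dendritic markers, 11 were higher and 1 lower in the mixture, 5 and 4 in IL12, and 5 and 3 in DRIL18, with medians of 0.59 in the mixture, 0.32 in IL12 and 0.31 in DRIL18. The 1 that was lower in the mixture was Itgax, also named after its values were seen. Its log2 fold change was -3.82 in the mixture, -1.95 in IL12 and -1.11 in DRIL18. The part of dendritic cells in the class II changes was not tested. C1qa had 0 counts in all libraries, and the defining macrophage markers Adgre1, Csf1r, C1qa and Lyz2 summed to 0.204 and 0.178 CPM in the mixture, 0.261 and 0.629 in IL12, 0.519 and 0.648 in DRIL18, and 1.44 and 0.506 in Mock. Of the 7 tested of 20 macrophage and monocyte markers, 1 was higher and 6 lower in the mixture, 0 and 3 in IL12, and 1 and 0 in DRIL18. The CD8 T cell markers were lower in 10 of 10 cases in the mixture, 7 in IL12 and 7 in DRIL18, with medians of -0.60 in the mixture, -0.19 in IL12 and -0.13 in DRIL18. Of 8 CD4 T cell markers, 2 were higher and 4 lower in the mixture, 2 and 2 in IL12, and 3 and 1 in DRIL18, with medians of -0.32 in the mixture, -0.32 in IL12 and 0.25 in DRIL18. For all these marker lists, the shares called over all tested genes were 63.9% in the mixture, 46.6% in IL12 and 24.3% in DRIL18. Cd4 itself had 3.81 to 6.04 CPM over the 10 libraries.

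**Figure D5:**
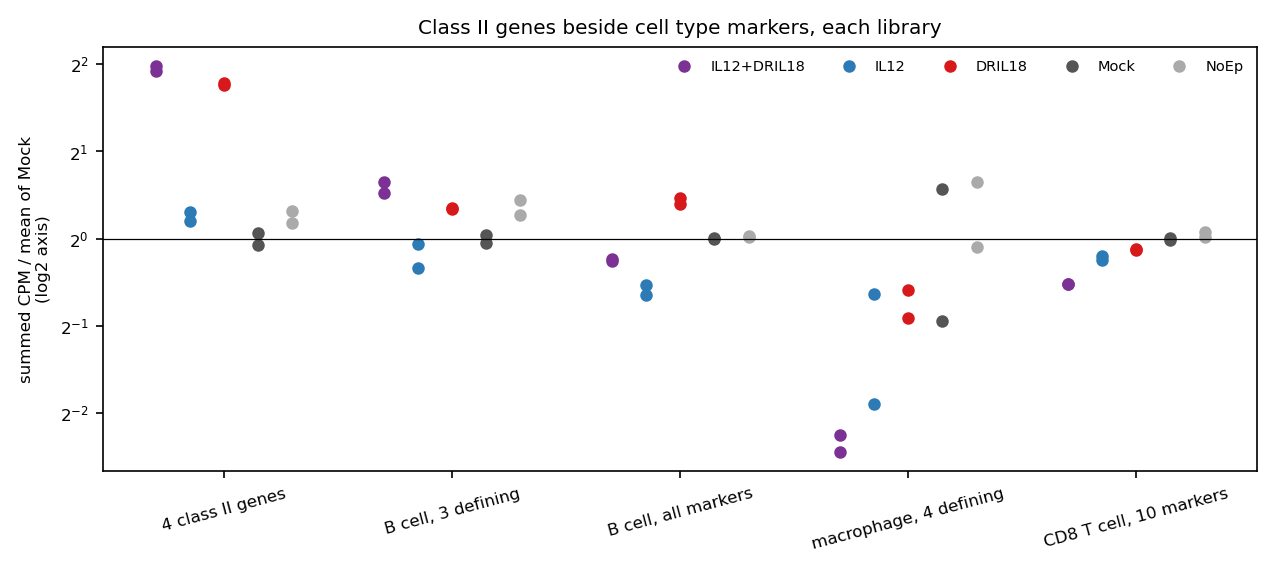
Summed CPM of the class II genes Cd74, H2-Aa, H2-Ab1 and H2-Eb1, of defining B cell markers, of all 19 B cell markers, of defining macrophage markers and of 10 CD8 T cell markers, each divided by its mean in Mock, on a log2 axis. Each point is a library. The class II sum is 3.87-fold of Mock in the mixture and 3.42-fold in DRIL18, and the defining B cell markers are 1.5-fold in the mixture and 1.27-fold in DRIL18.

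Genes outside the set were ranked by how closely their profile followed it, as the root mean square (RMS) difference of log2 CPM over the 10 libraries after centring each gene. Closest to the mean of Cd74, H2-Aa, H2-Ab1 and H2-Eb1 was Relb, a subunit of NF-kappa-B, at 0.133, with mean CPM of 63.2 in the mixture, 23.8 in IL12, 50.8 in DRIL18, 18.9 in Mock and 21.5 in NoEp. Mpeg1 at 0.238, Plch1 at 0.260, Psd at 0.268 and Ninl at 0.276 followed. Closest to Ciita were Tmtc4 at 0.323, AC061963.1 at 0.336, Ajm1 at 0.362, Shtn1 at 0.375 and Zfp608 at 0.390. Within the set, H2-Aa at 0.283 and H2-Eb1 at 0.348 were nearest to Ciita and H2-Oa at 1.38 farthest. These distances describe profiles that share libraries and groups, and carry no test.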

How the data were processed

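Raw read counts per gene and log2 CPM values were used as the authors deposited them. STAR 2.7.9, the build mm39, featureCounts, edgeR and limma are named in the submitters' processing notes; the libraries were made with a stranded TruSeq mRNA kit, per the labels' protocols. The deposited log2 values cover 13225 genes and served as an alternative. Sources used here do not give the annotation, the strand setting or the handling of reads with several alignments. Columns beginning NE were read as NoEp. Symbols came from GENCODE M21 by Ensembl identifier, matching 52083 identifiers and leaving 3276 unmatched; exon lengths and overlaps came from the same GRCm38 annotation and promoters from RefSeq on GRCm38.p6.

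Counts were fitted in edgeR 4.0.16 (R 4.3.3) with TMM (factors 0.9547 to 1.027), filterByExpr, 5 group means over all 10 libraries and 5 residual degrees of freedom. Standard errors and 95% intervals came from the quasi-likelihood F statistic. The common coefficient of variation beyond counting was 3.39%. Alternatives used DESeq2 1.42.0, limma 3.58.1, other scalings, filters and covariates, and left out each library.

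The members, gene lists and tests were chosen with earlier results of these data known. Named were all members, list genes called in the mixture with the largest changes (up to 4 a list), any gene upstream of Ciita or on class II promoters, defining cell type markers, and the 5 genes nearest in profile; 2 genes of the lists are not reported here. Depth limits precision, and a count of 0 allows up to 3 counts, or 0.0835 to 0.098 CPM, for counting error only.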

Additional observations from a re-analysis of the deposited data

Results flagged for a closer look

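H2-DMa and H2-Oa were flagged because IL-12 mRNA changed them by different amounts with and without DRIL18, by a test of that difference in edgeR. These are 2 of the 10 members, while 31.6% of all tested genes were called in that test (14.6% higher, 17.1% lower). Such a call is thus not particular to the set. For H2-DMa the IL12 effect was -1.61 on the log2 scale with DRIL18 present (mixture against DRIL18) and -0.65 without it (IL12 against Mock), a difference of -0.97 ± 0.10 (adjusted p = 2.17e-09). Its DRIL18 effect was -0.59 with IL12 (mixture against IL12) and 0.37 without it (DRIL18 against Mock), so it changed sign. For H2-Oa the IL12 effect was -2.31 with DRIL18 and -1.61 without it, a difference of -0.70 ± 0.17 (adjusted p = 0.00228). Both differences kept their call in all 19 alternatives run. The cause was not tested. Groups of 2 libraries are too small to check for single libraries that stand apart.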

How the results depend on the processing

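Over 19 alternatives, 1454 of 1520 log2 fold changes of the 10 genes kept their direction and their side of the threshold, 15 lost a call, 26 gained one and 25 changed sign, all of the last on values that were not called. The number of members called fell in Mock against NoEp to 1 with the mark bis as a covariate, and ran from 1 to 4 as each library was left out in turn. All genes called there fell from 1102 to 172 with that covariate, 242 without Mock replicate 1, 349 without Mock replicate 2 and 350 without NoEp replicate 2; in DRIL18 against Mock they fell from 3832 to 2525 without Mock replicate 2. The cause was not tested.

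Fitted with that covariate, the sign changed for Ciita in IL12 against Mock (0.00085), H2-Aa there (0.0866), H2-DMb1 in the mixture against Mock (-0.0930), H2-Ab1 in Mock against NoEp (0.20) and H2-Aa in the mixture against DRIL18 (0.0219). With no scaling beyond the library total it changed for the Cd74 interaction (0.0058). Leaving out a library gave, in IL12 against Mock, -0.204 to 0.0614 for Ciita, -0.148 to 0.0599 for H2-Aa, -0.0190 to 0.286 for H2-Eb1 and -0.71 to 0.16 for H2-DMb1. It gave -0.14 to 0.73 for H2-DMb1 in the mixture against Mock, and -0.259 to 0.0391 for H2-Aa in the mixture against DRIL18. In Mock against NoEp it gave -0.148 to 0.0550 for H2-Ab1 and -0.0266 to 0.0790 for H2-DMa. For the interaction it gave -0.0634 to 0.0268 for Cd74, -0.217 to 0.0811 for H2-Aa, -0.378 to 0.121 for H2-Ab1 and -0.0524 to 0.253 for H2-Eb1.

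Libraries with the same replicate number did not deviate together (r from -0.03 to 0.05 over 10 pairs of groups), so no pairing by number was seen. Low-count genes were included, and counting noise in them pulls r towards 0, so these values cannot settle whether the numbers pair libraries. With the replicate number as a block, Cd74 in IL12 against Mock (0.18, adjusted p = 0.0444) and H2-Eb1 in the mixture against DRIL18 (0.23, adjusted p = 0.0471) passed the threshold, and members called in the mixture against Mock stayed 8 in number. H2-Eb1 and Ciita in the mixture against DRIL18 passed under 7 and 4 alternatives, and H2-Oa in DRIL18 against Mock under 5. Without scaling, 35.15% of the genes called in IL12 against Mock were higher, against 49.42% with TMM, and 28.88% against 47.91% in IL12 against DRIL18. With 2 libraries a group and 27 to 150 counts, Ciita and H2-DMb1 have the widest intervals of the set.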
